A study of Mus musculus with 6 samples.

Results

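The genes examined here build, move and divide the mitotic spindle. They are 52 genes taken by symbol from a list of spindle motors, kinetochore proteins, checkpoint proteins, mitotic kinases, anaphase regulators, cytokinesis factors and condensin subunits. All 52 have a row among the 18943 genes of the expression table, and all 52 passed the filter on low values that left 13921 genes for testing. They were read in 6 RNA-seq libraries of muscle stem cells (MuSCs), the satellite cells that divide and fuse to repair skeletal muscle. The cells came from WT C57BL/6 mice that were 8 weeks old, were purified by FACS and were cultured for 5 days. Every library carries the same genotype and culture time, and the groups differ in what was added, which was DMSO (2 libraries), ET-3 (2 libraries) or NT (2 libraries). ET-3 (endothelin-3) and NT (neurotensin) are peptides that signal through G protein-coupled receptors, and the DMSO libraries are the solvent controls. The sample labels give a dose of 100 nM for both ligands, whereas the methods of the study give higher doses that differ between the ligands.

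In mitosis, microtubule motors of the kinesin family push the spindle poles apart and carry chromosomes, while kinetochores tie the microtubules to centromeres. The spindle checkpoint holds back the anaphase promoting complex until every kinetochore is attached, after which separase cuts cohesin and a contractile ring divides the cell. Satellite cells rest in G0 in uninjured muscle, divide after isolation in culture and leave the cell cycle when they differentiate, and most mitotic genes are transcribed in G2 and M phase, so their RNA is used as a marker of cycling cells. In bulk RNA, a change in the share of dividing cells and a change in mitotic RNA per cell cannot be told apart.

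With either ligand, nearly the whole mitotic set was higher than with DMSO. Summed over the 52 genes, the values came to 24652 and 25353 in the DMSO libraries, 39402 and 39068 in the ET-3 libraries, and 38077 and 37310 in the NT libraries. With ET-3, 50 of the 52 genes rose at an adjusted p of at most 0.05 and 0 fell, against 30.6% of all tested genes that rose and 33.2% that fell (limma with Benjamini-Hochberg adjustment over all tested genes). With NT, 50 rose and 1 fell, against 29.7% and 32.5% of all tested genes. The same 50 genes rose under both ligands, and both comparisons use the same DMSO libraries. The median log2 fold change of the 52 genes was 0.66 with ET-3 (a fold of 1.58) and 0.65 with NT (a fold of 1.57), beside medians of -0.01 over all tested genes in both comparisons. The pooled SD of the set's median level between the libraries of a group was 0.058 on the log2 scale.

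Most rises were below 2-fold. Under ET-3, 47 of the 52 genes had a log2 fold change between 0.3 and 1, and under NT 41 did. Rises of at least 2-fold were found in 3 of the 52 genes under ET-3 (Espl1, Ttk and Kif2c), beside 6.62% of all tested genes. Under NT 5 genes passed (the same 3 with Kif15 and Kif20b), beside 7.3%. Both counts are near those shares, so they do not set the mitotic genes apart. None fell by 2-fold, beside 14.9% of all tested genes with ET-3 and 13.2% with NT. In 50 genes all 4 ligand-treated libraries lay above both DMSO libraries, against 33.2% of all tested genes. The exceptions were Cenpm and Ube2c. The number past 2-fold moved with single libraries, since 7 genes passed with ET-3 without the second DMSO library and 6 without the second ET-3 library, and 3 passed with NT without the first DMSO library. With each library scaled to its total, 10 genes passed with ET-3 and 9 with NT. The share of all tested genes past 2-fold is not given for these other fits. Their counts therefore cannot be set beside the shares above.

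**Figure D1:**
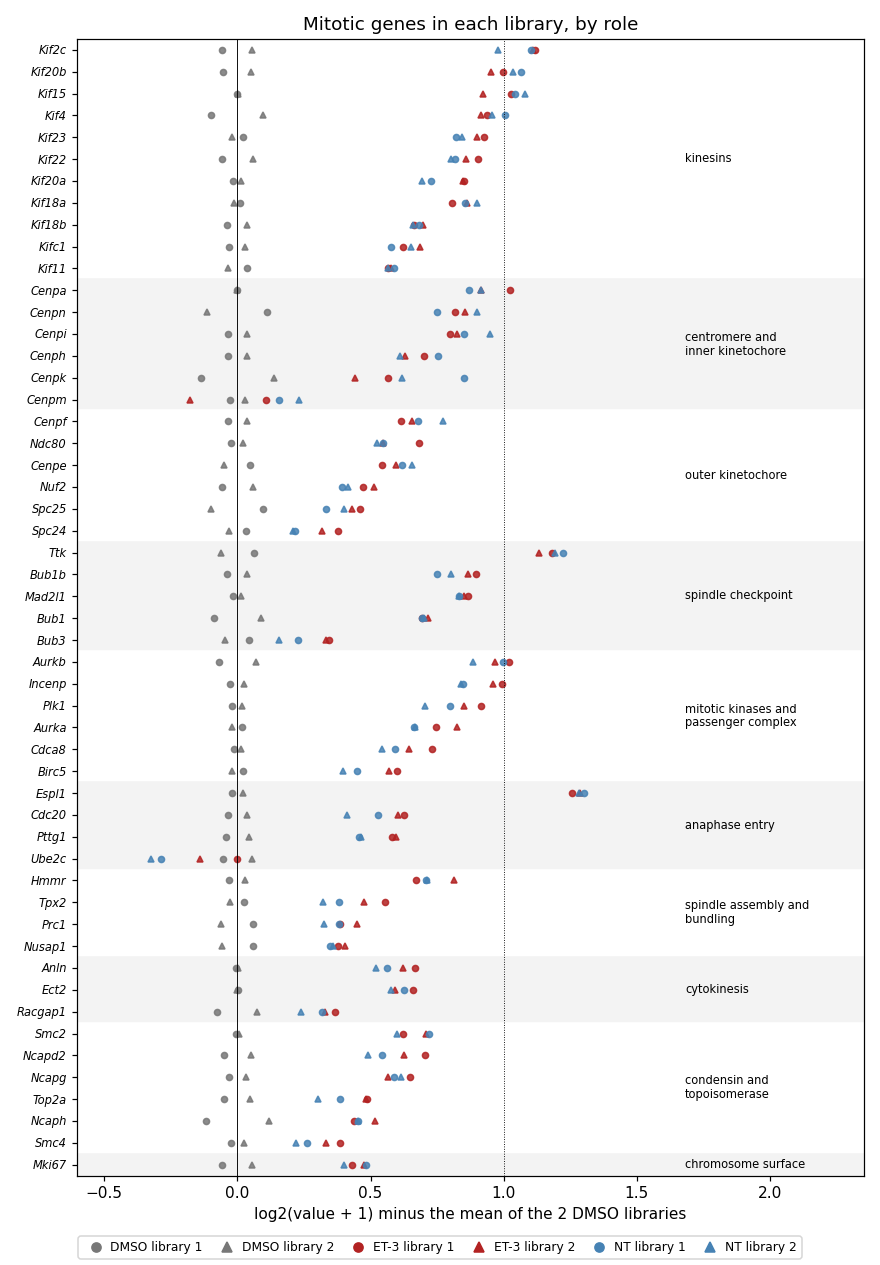
Each row is 1 mitotic gene, grouped by role, and each symbol is 1 library, placed by its log2(value + 1) minus the mean of the 2 DMSO libraries. The dotted line marks a 2-fold rise. The ET-3 and NT symbols lie to the right of both DMSO symbols in 50 of the 52 rows, the exceptions being Cenpm and Ube2c.

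The values are reads per gene scaled by 1 factor per library, equal to between 3629296 and 5396581 reads per library, and at a value of 100 the counting error alone is 8.84% to 10.9%. These figures cover counting error only. The labels call the 2 libraries of a group replicates without saying that they came from separate animals or cultures, so p-values measure the spread between these libraries, which may be technical. The study describes its RNA-seq samples as biological samples, and both it and the series' design text give more of them per group than the pairs of libraries analysed here. The 2 ET-3 libraries differed from each other by about the sampling noise of their reads (mean chi-square per gene of 0.885), as did the 2 NT libraries (0.927), while the 2 DMSO libraries differed by more (1.44). Whether a treated pair is 1 library sequenced in separate runs was not tested. When the 2 libraries of a treated group were averaged into 1 sample, 36 of the 52 genes rose with ET-3 and 33 with NT (limma, Benjamini-Hochberg adjusted), against 10.5% and 9.16% of all tested genes. In that fit each ligand has a single sample, assumed to vary like the controls, and the pair of DMSO libraries alone supplies the spread.

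Promoter sequence was read for the genes at the ends of this range, since the data turn on which members rose most and which did not rise. Many late cell cycle genes carry CCAAT boxes, which bind the factor NF-Y, and a cell cycle genes homology region (CHR) near the start, to which complexes with Myb and Foxm1 are recruited. The 4 sequences are RefSeq promoters on GRCm38.p6, cut to 170 bases before and 30 bases after the transcription start, written along the gene's strand, with CCAAT or its reverse ATTGG and the CHR letters TTTGAA (reverse TTCAAA) or TTCGAA in capitals. They lie at chr15:102296123-102296322 (plus strand, Espl1), chr9:83834519-83834718 (plus strand, Ttk), chr2:164769759-164769958 (plus strand, Ube2c) and chr15:82244307-82244506 (minus strand, Cenpm).
Espl1: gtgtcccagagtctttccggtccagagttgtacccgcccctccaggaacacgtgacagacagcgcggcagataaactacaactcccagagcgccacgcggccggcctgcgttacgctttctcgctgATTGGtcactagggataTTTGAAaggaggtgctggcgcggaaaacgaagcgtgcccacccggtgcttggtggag
Ttk: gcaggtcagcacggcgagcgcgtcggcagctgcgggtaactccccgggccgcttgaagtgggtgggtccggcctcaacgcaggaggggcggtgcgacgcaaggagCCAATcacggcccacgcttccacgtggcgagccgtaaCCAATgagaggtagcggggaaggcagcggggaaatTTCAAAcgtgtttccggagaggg
Ube2c: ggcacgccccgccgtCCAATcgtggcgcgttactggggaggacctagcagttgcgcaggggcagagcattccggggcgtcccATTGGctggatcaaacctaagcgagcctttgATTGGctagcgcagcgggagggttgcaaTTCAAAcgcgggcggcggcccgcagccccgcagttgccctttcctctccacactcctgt
Cenpm: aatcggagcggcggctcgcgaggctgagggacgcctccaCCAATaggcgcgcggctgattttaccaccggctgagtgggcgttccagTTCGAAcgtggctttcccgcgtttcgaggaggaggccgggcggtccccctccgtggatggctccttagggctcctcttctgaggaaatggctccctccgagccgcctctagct
The genes with the largest rises, Espl1 and Ttk, and those that did not rise, Ube2c and Cenpm, all carried both kinds of letters in this window. A RefSeq promoter of 300 bases, from 250 before to 50 after the start, was at hand for 46 of the 52 genes. On either strand, CCAAT stood in 73.9% of the 46 promoters, beside 37.9% of all 27025 promoters in the table. TTTGAA or TTCGAA stood in 76.1%, beside 19.4% of all promoters. Both kinds stood in 30 promoters (65.2%), beside 7.7%. Where CCAAT and its reverse ATTGG overlap, each strand counts as a match. Within the mitotic genes, the 30 genes with both kinds of letters had a median log2 fold change of 0.67 with ET-3 and 0.64 with NT, and the 16 without both had 0.63 and 0.66. A match is a description of the sequence and was not measured as binding.

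The 11 kinesins, the motors of the spindle, all rose with both ligands, with a median log2 fold change of 0.88 with ET-3 and 0.83 with NT. Kif2c, which strips tubulin from microtubule ends at centromeres (chr4:117159639-117182639, GRCm38), went from 315 and 341 (DMSO) to 712 and 709 (ET-3) and 704 and 647 (NT). It rose 2.16-fold with ET-3 and 2.06-fold with NT, with a gap between the groups far wider than the spread within them. Kif15, a motor that helps keep the spindle bipolar (chr9:122951046-123018733), went from 359 and 360 (DMSO) to 733 and 682 (ET-3) and 741 and 760 (NT). Kif20b, a motor of late cytokinesis (chr19:34922361-34975745), went from 329 and 354 (DMSO) to 683 and 661 (ET-3) and 715 and 701 (NT). Both of these genes lay close to the 2-fold line, with log2 fold changes of 0.97 and 0.98 with ET-3, just under it, and 1.06 and 1.05 with NT, just over it.

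The kinesins with the highest values included the one that rose least. Kif11, the motor that separates the poles, went from 646 and 614 (DMSO) to 932 and 939 (ET-3) and 948 and 932 (NT), and its log2 fold change was the lowest of the kinesins (0.57 and 0.58, SE 0.046). Kif20a, a motor of the central spindle, went from 553 and 564 (DMSO) to 1007 and 1005 (ET-3) and 924 and 904 (NT). Of its exonic bases, 29.3% are shared with Cdc23 on the other strand, whose values were between 514 and 548 in all 6 libraries. Kif23, which bundles microtubules at the cleavage plane, went from 446 and 434 (DMSO) to 836 and 821 (ET-3) and 777 and 790 (NT). For each of these 3 motors every treated library was above both controls.

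Among the 6 genes of the centromere and inner kinetochore, 5 rose with each ligand, and the median log2 fold change was 0.74 with ET-3 and 0.78 with NT. Cenpa, the histone H3 variant that marks centromeres, went from 366 in both DMSO libraries to 745 and 690 (ET-3) and 670 and 690 (NT). That is a 1.96-fold rise with ET-3 and a 1.86-fold rise with NT. Cenpi went from 199 and 209 (DMSO) to 355 and 362 (ET-3) and 369 and 394 (NT), and Cenpn, which reads the Cenpa nucleosome, had 145 and 124, 237 and 243, and 226 and 251. Cenpi and Cenpn belong to the constitutive network of proteins on centromeric chromatin.

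Cenpm, of the same network (chr15:82233779-82244748), had the lowest mean value of the 52 genes. Its values were 50 and 52 (DMSO), 55 and 45 (ET-3) and 57 and 60 (NT). The groups overlapped for ET-3, where the log2 fold change was -0.03 (SE 0.18, adjusted p = 0.877 by limma with Benjamini-Hochberg adjustment). For NT both libraries were above both controls, yet the difference of 0.19 did not pass the test (limma, Benjamini-Hochberg adjusted p = 0.369). Counting error alone was 11.4% to 15.6% of its value in a library, so a rise as small as that of Spc24 or Bub3, given below, was not detectable in Cenpm at this depth. Cenpk, the next lowest of this group in value, went from 66 and 80 (DMSO) to 108 and 99 (ET-3) and 132 and 112 (NT), and its ET-3 call was lost without the first DMSO library (limma, Benjamini-Hochberg adjusted p = 0.111) or without the first ET-3 library (limma, Benjamini-Hochberg adjusted p = 0.0922). Over all alternatives the adjusted p of this comparison (limma, Benjamini-Hochberg) ran from 0.00328 to 0.158.

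The 6 outer kinetochore genes, whose proteins meet the microtubule in mitosis, all rose, by a median log2 fold change of 0.53 with ET-3 and 0.47 with NT. Cenpf, a large protein that links kinetochores to dynein, went from 741 and 778 (DMSO) to 1164 and 1198 (ET-3) and 1217 and 1296 (NT). Cenpe, a kinetochore motor, went from 773 and 723 (DMSO) to 1091 and 1129 (ET-3) and 1149 and 1177 (NT). Both were higher in the NT libraries than in the ET-3 libraries, with log2 differences of 0.09 and 0.07 (SE 0.049 and 0.048) that did not pass the test between the ligands.

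Spc24, a subunit of the Ndc80 complex, rose least of this group. It went from 322 and 308 (DMSO) to 410 and 393 (ET-3) and 366 and 364 (NT), a log2 fold change of 0.35 and 0.21. Its NT call was lost without either NT library (limma, Benjamini-Hochberg adjusted p = 0.0584 and 0.0527), with a range from 0.00065 to 0.114 over all alternatives. Nuf2, the partner of Ndc80, went from 314 and 340 (DMSO) to 454 and 467 (ET-3) and 429 and 436 (NT).

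Levels of subunits can be set beside each other only per length, here as the value per kb of exonic sequence. Within the Ndc80 complex the mean RNA level with DMSO ran from 35.7 per kb (Ndc80) to 122 per kb (Spc24). That is a spread of 3.43-fold between the RNAs of proteins that bind each other, and protein levels were not measured. With ET-3 the ends were 54.8 and 156 per kb, 2.85-fold apart, and with NT 51.8 and 142 per kb, 2.74-fold apart. The order of the 4 subunits was the same in the 3 groups, with Spc24 first, then Spc25, Nuf2 and Ndc80. In the chromosomal passenger complex the ends were Cdca8 at 63.6 per kb and Incenp at 123 per kb with DMSO, and they were 103 and 243 per kb with ET-3. Condensin I ran from 62.1 per kb (Ncapg) to 205 per kb (Smc4) with DMSO, and centralspindlin, the pair Kif23 and Racgap1, came to 55.7 and 104 per kb with DMSO and to 105 and 132 per kb with ET-3. Exonic length joins all annotated transcripts of a gene, so a gene with a long rare transcript has its level per kb understated.

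**Figure D2:**
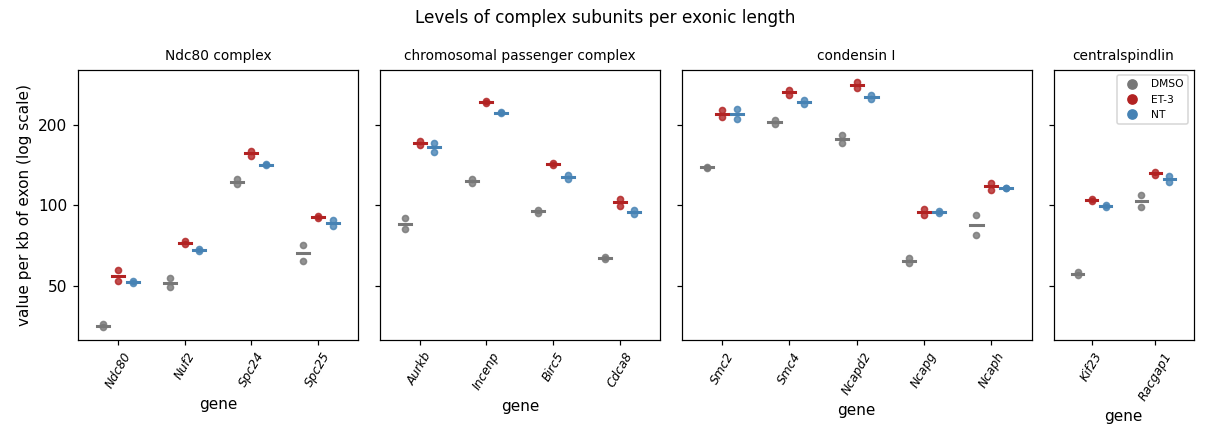
The value per kb of exonic length is drawn on a log axis for the subunits of 4 complexes, with points for single libraries and short lines for the mean of the 2 libraries of a group. Subunits of 1 complex differ by up to 3.43-fold with DMSO (the Ndc80 complex), and each subunit is higher in every ET-3 and NT library than in both DMSO libraries.

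All 5 genes of the spindle checkpoint rose, with a median log2 fold change of 0.86 with ET-3 and 0.78 with NT. Ttk (Mps1), the kinase that starts checkpoint signalling at unattached kinetochores (chr9:83834689-83872389), went from 170 and 156 (DMSO) to 371 and 358 (ET-3) and 381 and 373 (NT). It rose 2.23-fold and 2.31-fold. Bub1b (BubR1), part of the complex that binds Cdc20, went from 567 and 597 (DMSO) to 1084 and 1061 (ET-3) and 979 and 1015 (NT). Bub1, a checkpoint kinase of the kinetochore, went from 379 and 429 (DMSO) to 652 and 663 (ET-3) and 653 and 656 (NT).

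Bub3, which brings Bub1 and BubR1 to kinetochores and is also expressed outside mitosis, rose least of the checkpoint genes. It went from 556 and 522 (DMSO) to 685 and 679 (ET-3) and 631 and 601 (NT), or a fold of 1.27 and 1.14. Its NT call was lost without the second DMSO library (limma, Benjamini-Hochberg adjusted p = 0.0581) or the first NT library (limma, Benjamini-Hochberg adjusted p = 0.0881), with a range from 0.000402 to 0.152 over all alternatives. So within a checkpoint of 5 genes, the log2 fold change with NT ran from 0.19 to 1.21.

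The 6 mitotic kinases and passenger proteins rose as a group, with medians of 0.83 with ET-3 and 0.71 with NT. Incenp, the scaffold of the chromosomal passenger complex (chr19:9872296-9899551), went from 523 and 543 (DMSO) to 1063 and 1038 (ET-3) and 960 and 955 (NT). Plk1, the kinase of mitotic entry, spindle poles and cytokinesis (chr7:122159439-122169873), went from 410 and 421 (DMSO) to 785 and 750 (ET-3) and 723 and 678 (NT). Aurka, the kinase of spindle poles, went from 338 and 329 (DMSO) to 560 and 592 (ET-3) and 528 and 530 (NT). In all 3 genes both NT libraries lay below both ET-3 libraries and above both controls.

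Aurkb, the kinase of the passenger complex, had a log2 fold change of 0.99 with ET-3, just under the 2-fold line, and 0.94 with NT. Birc5 (survivin), which brings that complex to centromeres, moved least of this group. Its values went from 328 and 319 (DMSO) to 491 and 480 (ET-3) and 442 and 426 (NT). All 4 subunits of the complex rose with both ligands, by log2 fold changes between 0.58 and 0.99 with ET-3.

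The 4 genes of anaphase entry held both extremes of the mitotic set. Espl1, which encodes separase, the protease that cuts cohesin (chr15:102296266-102324357), went from 391 and 402 (DMSO) to 948 and 968 (ET-3) and 979 and 967 (NT). Its log2 fold change was 1.27 with ET-3 (SE 0.045, adjusted p = 9.71e-09) and 1.29 with NT (adjusted p = 9.74e-09, limma with Benjamini-Hochberg adjustment), the highest of the 52 genes in both comparisons. Pttg1, which encodes securin, the inhibitor of separase, rose less, with log2 fold changes of 0.59 and 0.46. Cdc20, the activator of the anaphase promoting complex and the gene with the highest mean level per kb of the set, went from 471 and 495 (DMSO) to 745 and 734 (ET-3) and 696 and 643 (NT).

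Ube2c, the ubiquitin-conjugating enzyme of the anaphase promoting complex (chr2:164769898-164778822), was the one gene that fell. Its values were 389 and 419 (DMSO), 403 and 366 (ET-3) and 331 and 322 (NT). With ET-3 the groups overlapped and the log2 fold change was -0.07 (SE 0.067, limma with Benjamini-Hochberg adjusted p = 0.375). With NT both libraries were below both controls, and the log2 fold change was -0.31 (limma with Benjamini-Hochberg adjusted p = 0.00276). The NT call was lost without the second DMSO library (limma, Benjamini-Hochberg adjusted p = 0.0549) and with each treated pair averaged (limma, Benjamini-Hochberg adjusted p = 0.101), the highest of a range that began at 0.000457 over all alternatives. The log2 fold change with ET-3 ran from -0.17 to 0.02 over them, so its sign was not stable.

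Ube2c shares 22.8% of its exonic bases with Tnnc2 on the other strand, the gene of fast skeletal muscle troponin C (chr2:164777161-164779967). Tnnc2 fell from 489 and 535 (DMSO) to 0 and 1 (ET-3) and 2 and 1 (NT). The strand setting of the counting is not given in the sources used here, and without it reads from the shared stretch cannot be told apart. The authors left out reads that overlapped several genes, and the part of Tnnc2 in the values of Ube2c was not tested. Beside Kif20a and Ube2c, 3 other mitotic genes share at least 10% of their exonic bases with a gene on the other strand, namely Kif4 (15.1%), Ncapg (13.4%) and Prc1 (11.1%). Their partners had log2 fold changes between -0.45 and -0.15 with ET-3, while Kif4, Ncapg and Prc1 all rose.

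The 4 genes of spindle assembly and bundling rose by a median log2 fold change of 0.47 with ET-3 and 0.35 with NT. Tpx2, which activates Aurka on the spindle, went from 849 and 819 (DMSO) to 1224 and 1160 (ET-3) and 1086 and 1043 (NT). Prc1, the bundler of the central spindle, went from 790 and 726 (DMSO) to 989 and 1034 (ET-3) and 988 and 950 (NT). Hmmr, a spindle protein also known as a hyaluronan receptor, went from 419 and 437 (DMSO) to 682 and 752 (ET-3) and 699 and 702 (NT). Nusap1, which bundles microtubules around chromosomes, moved least with ET-3 and about as little as Tpx2 with NT, with values of 314 and 290 (DMSO), 392 and 400 (ET-3) and 384 and 387 (NT). No treated library of these genes reached down to the level of a control.

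The 3 cytokinesis genes rose too, with medians of 0.63 and 0.54. Anln (anillin), the scaffold of the contractile ring, went from 1000 and 1005 (DMSO) to 1593 and 1545 (ET-3) and 1482 and 1439 (NT). Ect2, the exchange factor that activates RhoA at the cleavage plane, went from 543 and 541 (DMSO) to 857 and 818 (ET-3) and 836 and 809 (NT). Racgap1, its partner at the central spindle, moved least, from 695 and 771 (DMSO) to 945 and 919 (ET-3) and 912 and 864 (NT).

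Among the 6 genes of condensin and topoisomerase, which compact and untangle chromosomes, the medians were 0.55 and 0.48. Top2a went from 1571 and 1680 (DMSO) to 2276 and 2270 (ET-3) and 2121 and 2002 (NT). Ncapd2, a condensin I subunit, went from 1069 and 1148 (DMSO) to 1806 and 1708 (ET-3) and 1613 and 1555 (NT). Smc4, a core subunit of both condensins, moved least, with 1051 and 1087, 1396 and 1348, and 1283 and 1245. Mki67, the surfactant of mitotic chromosomes and the antigen Ki-67 of proliferation stains (chr7:135689784-135716361), had the highest values of the 52 genes, at 1850 and 2002 (DMSO), 2595 and 2678 (ET-3) and 2688 and 2538 (NT). Its rise of 1.37-fold with ET-3 and 1.36-fold with NT was below the median of the set. The paper reports that both ligands limited proliferation of MuSCs, by EdU incorporation in culture and by Ki-67 staining on isolated fibers after a shorter culture. The RNA values here run the other way. They are another measure, and the reason for the difference was not tested.

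Other genes of the same machines, from lists that do not hold the 52 genes, also rose in most cases. Of 32 further kinetochore and checkpoint genes, 28 rose and 2 fell with each ligand, with medians of 0.64 and 0.72. The largest changes there, averaged over both ligands, were in Haspin, the histone H3 kinase of centromeres, which went from 73 and 76 (DMSO) to 187 and 191 (ET-3) and 208 and 212 (NT), and in Trip13, which disassembles checkpoint complexes and went from 197 and 199 to 455 and 459 and to 447 and 419. Cenpp and Mad2l1bp were the genes that fell. Of 34 further genes of the spindle, mitotic cyclins and cytokinesis, 30 rose and 3 fell with ET-3 and 30 rose and 2 fell with NT, with medians of 0.65 and 0.61. Averaged over both ligands, the largest changes were in Depdc1b and in Cep55, a protein of the midbody, with log2 fold changes of 1.16 and 1.43 for Depdc1b and 1.07 and 1.00 for Cep55 under ET-3 and NT. Those that fell were Kif3a and Kif5b, which are transport kinesins of non-dividing cells as well, and with ET-3 also Kif24. The 3 remaining condensin genes rose, among them Ncapd3 by 0.74 and 0.83 and Ncapg2 by 0.58 and 0.64.

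Machines that act in mitosis but are also made outside it had lower medians than the mitotic set. A list of 16 genes of the anaphase promoting complex had medians of 0.09 and 0.07. Of these, 7 were higher and 3 lower with ET-3, and 5 were higher and 3 lower with NT. The list held core subunits and also Fzr1, a coactivator, and Ube2s, a ubiquitin-conjugating enzyme. Ube2s was among the genes higher with ET-3 (0.43) and Fzr1 among those higher with NT (0.14). Anapc13 fell by 0.82 and by 0.90 on the log2 scale, and Anapc15 rose by 0.58 and 0.60. The 12 cohesin genes had medians of 0.16 and 0.14, with 7 higher and 2 lower with ET-3 and 6 higher and 1 lower with NT. Among them, the acetyltransferases Esco2, made in S phase, and Esco1 moved in opposite directions (0.73 and 0.79 for Esco2, -0.60 and -0.58 for Esco1). A list of 23 regulators of cell cycle transcription held G2 and M phase factors and also the E2f, Tfdp, retinoblastoma and NF-Y families. Among these 23 genes, 13 rose with each ligand, 5 fell with ET-3 and 4 with NT. Mybl2, the activator of mitotic promoters, went from 189 and 167 (DMSO) to 478 and 471 (ET-3) and 469 in both NT libraries. Rb1, the retinoblastoma protein that holds cells out of the cycle, went from 1258 and 1298 (DMSO) to 297 and 279 (ET-3) and 322 and 348 (NT).

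DNA replication genes, which act in S phase, were read for comparison. All 34 rose with ET-3 and 32 with NT, with medians of 0.88 and 0.78, above the medians of the mitotic set. The difference between the lists was not tested, since the lists were chosen with earlier results known. Orc1, of the origin recognition complex, went from 54 and 49 (DMSO) to 195 and 172 (ET-3) and 201 and 211 (NT). Cdc6, which loads the replicative helicase, rose by 1.45 and 1.39 on the log2 scale.

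**Figure D3:**
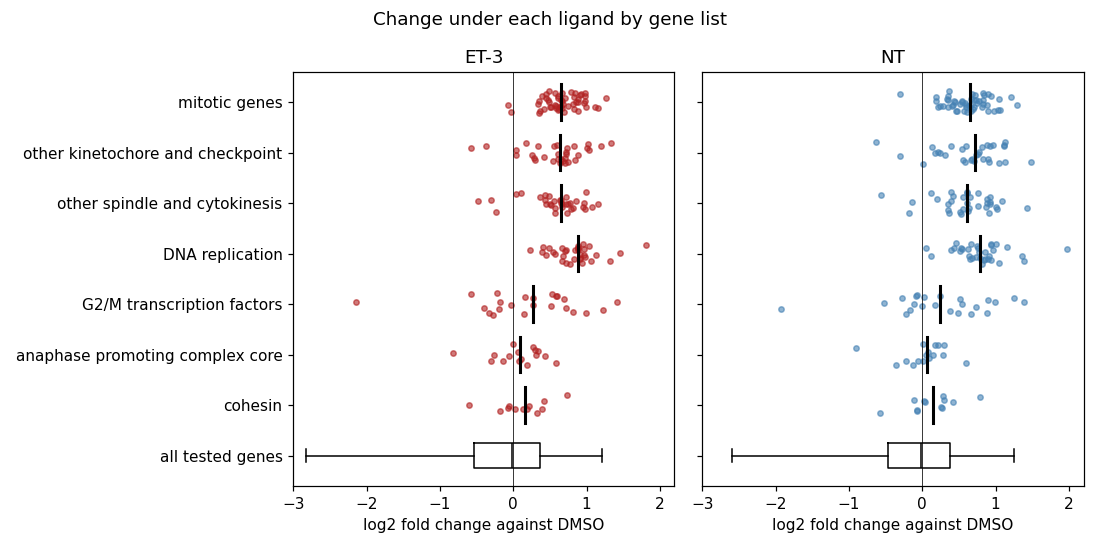
Each point is 1 gene, placed by its log2 fold change against DMSO with ET-3 (left) or NT (right), with a short line at each list's median, and the box shows all tested genes with whiskers from the 5th to the 95th percentile. The 52 mitotic genes have medians of 0.66 and 0.65 and the DNA replication genes 0.88 and 0.78. The list drawn as the anaphase promoting complex core, which also holds Fzr1 and Ube2s, has 0.09 and 0.07.

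Markers of other states moved with the same groups. The 12 genes of differentiating muscle summed to 34425 and 38121 with DMSO and to between 1951 and 2500 in the treated libraries, and all 12 fell with both ligands. Of 10 muscle stem cell markers, Calcr was at 3 or less in every library and the others were present. Of the 9 that were tested, 3 rose and 4 fell with ET-3, and 3 rose and 5 fell with NT, with sums of 9569 and 10484 with DMSO and between 7963 and 9519 in the treated libraries. Among them Pax7 rose 1.82-fold and 1.70-fold, whereas Cdh15 fell to 0.288 and 0.283 of its level with DMSO. Smooth muscle and pericyte markers summed to 2356 and 2815 with DMSO and to between 748 and 925 in the treated libraries (Myh11 and Kcnj8 at 5 or less throughout), and all 4 that were tested fell. Fibroadipogenic markers summed to 944 and 1016 and to between 397 and 479, with Dcn at 0 in some libraries, and moved in both directions. Gsn and Col1a1 fell with both ligands, while Ly6a rose with both (log2 fold changes of 0.83 and 0.98) and Pdgfra rose with NT (0.70). Endothelial markers summed to between 12 and 24 with DMSO and between 85 and 107 in the treated libraries, with Cdh5 at 5 or less throughout, and most of that rise was in Tek, at 2 and 1 (DMSO), 68 and 59 (ET-3) and 42 and 70 (NT). Macrophage markers summed to between 25 and 32 and between 51 and 77, and of the 3 that were tested only Cd14 passed, at 4 and 5 (DMSO), 32 and 34 (ET-3) and 32 and 24 (NT). Schwann cell markers summed to 67 in each DMSO library and to between 32 and 69 in the treated ones. Among the listed markers Emcn, Tie1, Cldn5, Lum, Ptprc, Adgre1, Lyz2, Sox10 and S100b were not analysed here. The part of these shifts in the rise of the mitotic genes was not tested.

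Between the ligands the mitotic genes differed little. None of the 52 genes passed the test of NT against ET-3 in either direction (limma with Benjamini-Hochberg adjustment), where 0.647% of all tested genes were higher and 2.05% lower (0.0503% and 0.0287% by at least 2-fold), and 14 had an unadjusted p under 0.05, beside 19.9% of all tested genes. The log2 difference was negative in 39 genes and positive in 13, with a median of -0.06 and a range from -0.23 (Ube2c, SE 0.067) to 0.23 (Cenpk, SE 0.15). Over all 13921 tested genes it was negative in 5894 and positive in 7892, with a median of 0.03. With voom weights on the recovered reads, 2 genes were lower with NT, Ube2c (limma, Benjamini-Hochberg adjusted p = 0.0479) and Tpx2 (limma, Benjamini-Hochberg adjusted p = 0.0436), while under the other alternatives both reached as high as 0.712 and 0.918. In 26 genes both NT libraries lay below both ET-3 libraries, beside 21.9% of all tested genes, and in 9 they lay above both, beside 27.7%. All 6 of the kinase and passenger genes and all 6 of the condensin and topoisomerase genes had a negative difference, whereas 4 of the 6 inner kinetochore genes had a positive one.

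The difference between the ligands moved with read coverage. Across the 52 genes, the difference between NT and ET-3 had a Pearson correlation of -0.66 and a Spearman correlation of -0.58 with the log10 of reads per exonic base, and across 13914 tested genes -0.26 and -0.38. The genes share the 6 libraries and are not independent replicates, so these are descriptions. With a trend against coverage removed from each library, an alternative chosen after the data were seen, the median difference was 0.00. In that fit the signs by role did not all hold, since Smc2, Smc4, Ncapd2, Top2a, Ncaph, Plk1 and Aurkb had a positive difference. Ncapg, Incenp, Birc5 and Cdca8 stayed negative, Aurka was at -0.0003, and the inner kinetochore genes kept their signs. The same step left the medians against DMSO at 0.59 with ET-3 and 0.61 with NT.

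**Figure D4:**
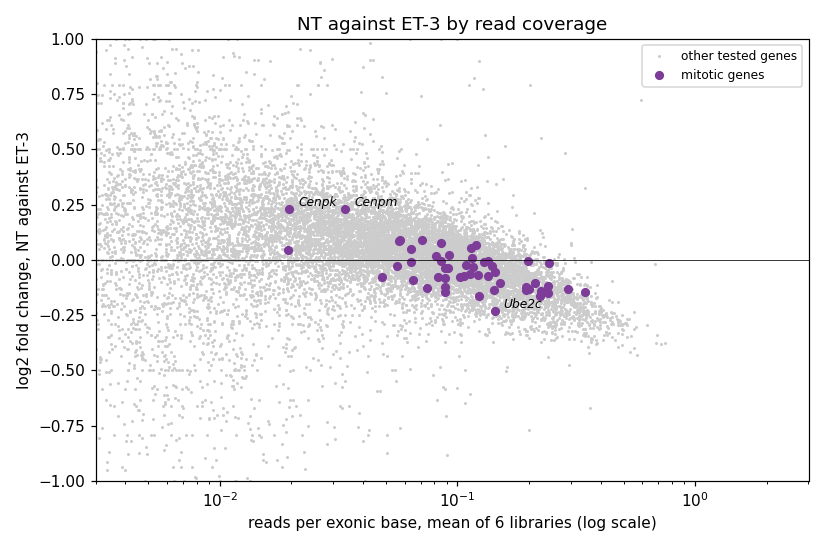
The log2 fold change of NT against ET-3 is plotted against reads per exonic base (log axis, mean of 6 libraries) for the mitotic genes in colour and for other tested genes in grey, of which 1107 lie outside the limits drawn. Cenpk and Cenpm, at low coverage, lie at 0.23, and Ube2c lies at -0.23.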

How the data were processed

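RNA-seq libraries of cultured MuSCs were examined, 2 per group, grouped by their labels. Per the labels, the submitters' processing notes name Trimmomatic 0.38, STAR 2.7.7a, featureCounts 1.6.5 and DESeq2 1.30.0 with mm10; the methods of the paper name other versions and another library kit. The authors counted reads on exons without reads on several genes. The deposited values are a read signal, namely counts multiplied by 1 factor per library (0.781 to 1.19, recovered from the values) and rounded, with totals from 4214458 to 4600575.

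Genes whose mean value reached 5 were tested with limma 3.58.1 (R 4.3.3) on log2(value + 1) with a mean-variance trend, all 6 libraries in 1 fit, with Benjamini-Hochberg adjustment over 13921 genes. Fold changes are on that scale. Calls used an adjusted p of at most 0.05, alone or with at least 2-fold. Because the values are scaled, tests for raw counts were not run. Exonic lengths and positions came from GENCODE M21 (GRCm38), matched by identifier for 18920 genes, and promoters from RefSeq (GRCm38.p6), matched by symbol.

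The members and lists were chosen with earlier results of these data known. Within each role, values per library are given for genes called at 2-fold, the 3 with the highest mean value and the one with the smallest change, and from each other list for the 2 with the largest change. Further genes are named as parts of a complex, ends of a range, overlapping genes or the few that fell, after their values were seen. The fit was tested on simulated data. Alternatives covered the filter, scaling, pseudocount, voom, the replicate block, averaged pairs, 2 groups alone and each library left out.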

Additional observations from a re-analysis of the deposited data

How the results depend on the processing

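The medians against DMSO stayed positive under every alternative run, and the number of genes past 2-fold moved most. With each library scaled to its total, which moved the median of all tested genes to 0.08 and 0.10, 10 genes passed 2-fold with ET-3 and 9 with NT, and the mitotic medians were 0.75 and 0.76. With upper-quartile scaling, 8 passed with ET-3. The share of all tested genes past 2-fold is not given for the alternatives, so these counts do not set the mitotic genes apart. Without a fold threshold, 50 and 51 passed. Leaving out each library in turn gave 3 to 7 genes past 2-fold with ET-3 and 3 to 7 with NT. The ET-3 count was 7 without the second DMSO library and 6 without the second ET-3 library, and the NT count was 3 without the first DMSO library. Over the same fits 49 to 50 genes rose with ET-3 and 48 to 50 with NT, the medians ran from 0.63 to 0.68 and from 0.61 to 0.65, and that of NT against ET-3 from -0.06 to -0.04. With each treated pair averaged, which leaves 1 residual degree of freedom, 36 and 33 genes rose. With the coverage trend removed, the medians were 0.59, 0.61 and, for NT against ET-3, 0.0004, and Ube2c passed the test as lower with ET-3 (limma, Benjamini-Hochberg adjusted p = 0.0368).

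Replicate numbers did not pair the libraries (correlations of deviations between same-numbered libraries of -0.01, -0.07 and -0.02), and the replicate block gave 3 genes past 2-fold with ET-3, 5 with NT and 0 between the ligands. It changed no call of the 52 genes. Errors were widest for genes with few reads, with an SE of 0.18 for Cenpm and 0.15 for Cenpk, beside a median of 0.054 over the 52 genes.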
